A study of Bos taurus with 2 samples.

Results

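Lactose, the main sugar of milk, is made in the Golgi of mammary epithelial cells, and 9 genes of its synthesis were followed here in RNA from bovine milk whey. Members were every gene probe whose gene name on the array was B4GALT1, SLC2A1, SLC2A8, UGP2, PGM1, HK1, HK2, SLC35A2 or GALT. This found 24 probes of 8 genes, among 43652 gene probes and 15821 named genes in all. HK2 was the 1 gene with no probe under its own name.

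Glucose enters the cell through carriers such as SLC2A1 and SLC2A8 (GLUT1 and GLUT8), and hexokinases (HK1, HK2) phosphorylate it. PGM1 converts glucose 6-phosphate to glucose 1-phosphate, UGP2 makes UDP-glucose from that, and GALT, an enzyme of the Leloir pathway, exchanges UDP-glucose and galactose 1-phosphate for UDP-galactose and glucose 1-phosphate. SLC35A2 carries UDP-galactose into the Golgi, where B4GALT1, made into lactose synthase by the milk protein alpha-lactalbumin (LALBA), joins galactose to glucose.

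Both groups came from the whey of Holstein raw milk, unmodified and untreated as far as the labels say, and the age of the cows is not given in the sources used here. The exosome group was the material pelleted at 10000 g for 90 min in the cold, named exosome in the labels after the small membrane vesicles that cells release, and it was resuspended in saline buffer and spun again for its washes. The supernatant group was the whey left above that first pellet. The speed is printed as the labels give it, while the title of the supernatant sample says that it was taken after ultracentrifugation. The printed speed is low for pelleting small vesicles, so what each fraction held is uncertain. RNA of 3 milks was mixed equally, 100 ng was labelled with the dye Cy3, and each fraction was put on 1 bovine array of 60-base probes. With 1 array per group there was no replicate and no test, every difference is between these 2 arrays, and fewer cells or vesicles of a type cannot be told apart from less RNA in each.

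Signals are the scanner software's background-subtracted brightness in its own linear units, printed ± the error the software gave each signal. Detection of a probe means here that its signal had the software's call of being well above background, and the lowest such signal was 11.3 for exosome and 9.04 for supernatant. The exosome array was the brighter one: detection reached 58.5% of gene probes on it, against 13.1% on the supernatant array, and the median gene measured on both arrays was 11.3-fold brighter on it (log2 3.50, 3372 genes). Spike-in RNAs, added in known amounts during labelling, were brighter there by a median of 4.83-fold over 8 probes. Their single differences ran from 0.72 to 2.54 (log2). Differences are therefore given first as measured and then relative to the median gene. Detected luminal epithelial markers numbered 8 of 8 in the exosome pellet, against 6 in the supernatant, and vesicle markers 5 of 5, against 2. Myoepithelial markers numbered 3 of 4 in the exosome pellet, against 2 in the supernatant, with KRT5 on neither. Of the 7 leukocyte markers, 3 were detected in the exosome pellet and the same number, 3, in the supernatant, while CD3E, MS4A1, ITGAM and CSF3R were above background on neither. Of the erythrocyte markers HBA was above background on both arrays, and HBB and ALAS2 on neither. Relative to the median gene, all 6 measured luminal markers and both measured vesicle markers lay 2-fold or more above it. All 3 measured leukocyte markers lay 2-fold or more below it, as did 1 of the 2 measured myoepithelial markers, with 0 of those above. HBA lay within 2-fold of it. Of all genes measured on both arrays, 37.2% lay 2-fold or more above the median gene and 36.8% lay 2-fold or more below it.

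The probes were 60-base stretches of the transcripts, and those the results turn on are printed from the deposited array annotation, 5′ to 3′, with positions in build HGSC Btau_3.1. The set for B4GALT1 lies on the minus strand of chromosome 8 at chr8:79006620-79006679, chr8:78983228-78983287 and chr8:78982870-78982929, and begins at transcript bases 618, 1304 and 1661. It is shown because 1 of its probes, at base 1661, was the one B4GALT1 probe measured on the supernatant array. The last 24 bases of that probe are printed, and their capitals mark its closing run of A.
B4GALT1 base 618: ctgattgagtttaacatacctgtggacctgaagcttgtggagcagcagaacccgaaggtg
B4GALT1 base 1304: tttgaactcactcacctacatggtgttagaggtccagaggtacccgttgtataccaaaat
B4GALT1 base 1661: gtgggactcatccccagcAAAAAA

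GALT has 4 probes on the plus strand of chromosome 8, at chr8:80235461-80235520, chr8:80236068-80236286, chr8:80236811-80236969 and chr8:80237907-80237966. The stretches at bases 563 and 871 span more of the genome (219 and 159 bases) than the probe is long, so each is split in the genome, as a stretch across a splice junction would be. They are shown because 2 of the 4, at bases 563 and 1208, were measured on the supernatant array. Capitals mark a run of C in the first of these and, in the last 24 bases of the second, AATAAA, the hexamer of polyadenylation signals.
GALT base 320: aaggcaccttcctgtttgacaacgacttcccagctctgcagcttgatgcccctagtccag
GALT base 563: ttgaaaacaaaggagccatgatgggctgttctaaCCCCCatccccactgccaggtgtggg
GALT base 871: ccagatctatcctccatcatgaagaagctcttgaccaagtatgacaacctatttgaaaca
GALT base 1208: cagatgtgggatcAATAAAactat

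UGP2 is shown because it had the largest bound of the members detected on the exosome array alone. Its 4 probes lie on the plus strand of chromosome 11, at chr11:64124275-64125047 (a span of 773 bases, so split in the genome), chr11:64131635-64131694, chr11:64131984-64132043 and chr11:64131995-64132054, and the sequence of the one at base 2104, which overlaps the last, is not printed. The last 24 bases are printed for the probe at base 2115, with AATAAA in capitals.
UGP2 base 827: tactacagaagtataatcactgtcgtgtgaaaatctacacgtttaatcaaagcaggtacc
UGP2 base 1755: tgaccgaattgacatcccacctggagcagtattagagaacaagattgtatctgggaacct
UGP2 base 2115: cttgtgatttcaaaAATAAAgctg

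The probe ends of SLC2A8 and SLC35A2 also carry AATAAA, in capitals in the last 24 bases. That of SLC2A8 lies at chr11:101654215-101654384 and that of SLC35A2 at chrX:55502075-55502134, both on the plus strand. The probes of PGM1 at base 175 (chr3:87986903-87986962, minus strand) and HK1 at base 2144 (with no position in the array annotation) are given whole, since they were dim or not detected.
SLC2A8 base 1928: ggaggaactttgccaAATAAAtat
SLC35A2 base 2204: aggatacccaatgccaAATAAAga
PGM1 base 175: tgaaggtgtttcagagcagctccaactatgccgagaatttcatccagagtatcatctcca
HK1 base 2144: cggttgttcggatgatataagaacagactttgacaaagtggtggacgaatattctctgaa

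Each of the 8 lactose synthesis genes with a probe was detected in the exosome pellet, and 2 of them, B4GALT1 and GALT, also in the supernatant. The array's named genes as a whole were detected to 69.2% in the exosome pellet, against 22.7% in the supernatant, with 21.7% on both arrays, 47.5% on the exosome array alone, 1.02% on the supernatant array alone and 29.8% on neither. Each member had 2 to 4 probes, and named genes with that many were detected to 78.5% in the exosome pellet, against 26.7% in the supernatant, with 25.7% on both and 52.8% on the exosome array alone. The 2 of 8 members in the supernatant are near the share of such genes, and no test was made of the 8 of 8 in the exosome pellet. By probe, the exosome array detected 22 of 24 (91.7%) and the supernatant array 3 (12.5%). The 22 exosome signals ran from 22.1 to 24329 with a median of 683, while the 21 supernatant signals not above background ran from 1.85 to 10.8 with a median of 2.36. Of those 21, 11 were surrogate values that the software sets for spots too dim to measure.

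**Figure D1:**
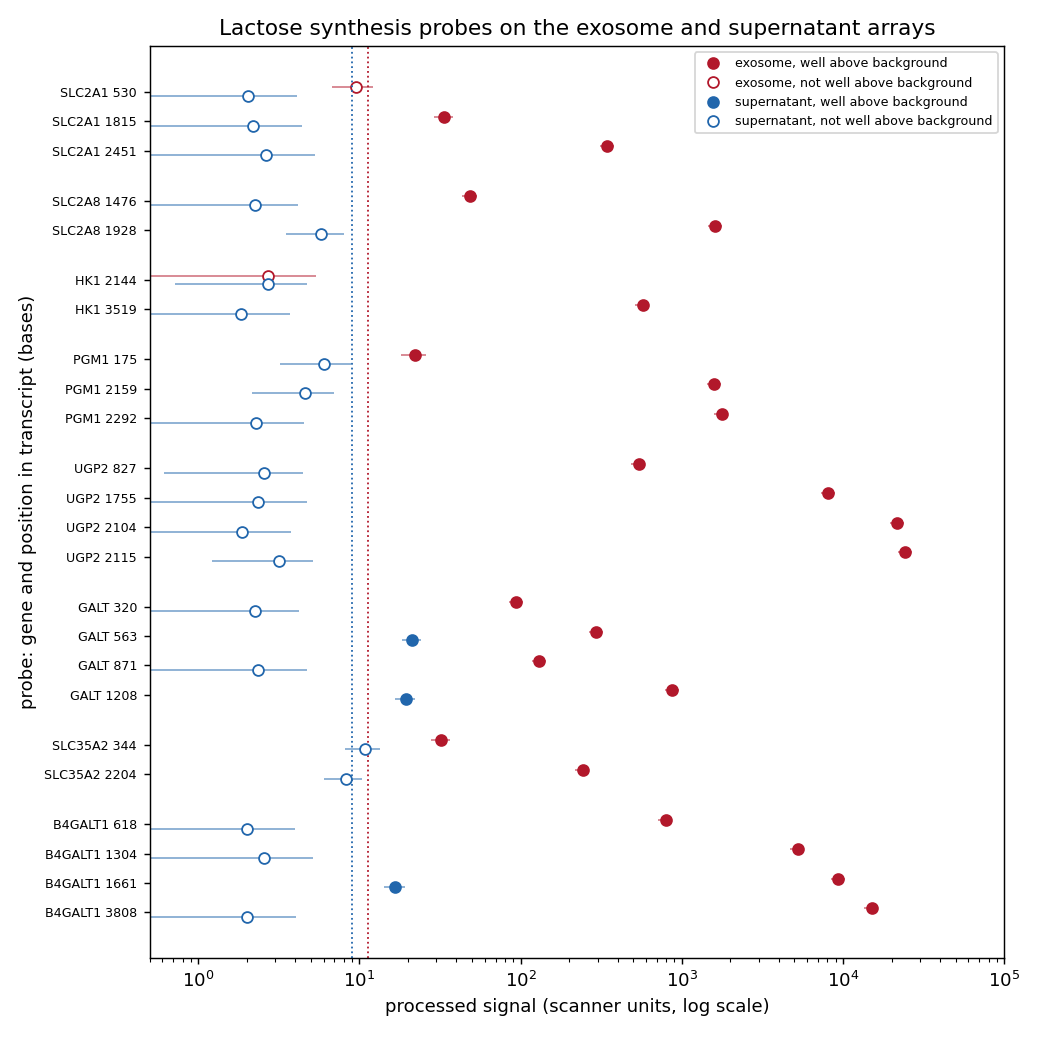
Processed signal of each of the 24 probes on the exosome array (red) and the supernatant array (blue), on a log axis in scanner units, with the software's error as bars. Filled points were well above background and dotted lines mark the lowest such signal on each array; 22 red points and 3 blue points are filled.

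Both glucose carriers among the members were detected on the exosome array alone. SLC2A1, the main glucose carrier of the mammary cell surface, had signals of 9.46 ± 2.69, 33.6 ± 4.38 and 346 ± 34.7 on the exosome array at bases 530, 1815 and 2451, against 2.05 ± 2.04, 2.19 ± 2.18 and 2.64 ± 2.63 on the supernatant array. The first of these was not well above background on either array, and the other 2 were at least 3.71-fold and at least 38.2-fold brighter on the exosome array. A bound of this kind sets the exosome signal against the lowest signal well above background on the supernatant array, or against the dim probe itself where that was higher. SLC2A8, a glucose carrier of internal membranes, had exosome signals of 48.5 ± 5.41 and 1606 ± 161 at bases 1476 and 1928, against supernatant signals of 2.26 ± 1.90 and 5.77 ± 2.25. Both its probes were above background on the exosome array alone, with bounds of at least 5.36-fold and at least 178-fold.

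The hexokinase step rested on 1 probe. HK1, the hexokinase found in most tissues, had an exosome signal of 570 ± 57.1 at base 3519 (chr28:24993761-24993820, plus strand), against 1.85 ± 1.85 on the supernatant array, a bound of at least 63.1-fold. Its other probe, printed above, gave 2.70 ± 2.69 on the exosome array, against 2.71 ± 1.996 on the supernatant array, and was above background on neither. The probes belong to different transcript records, so HK1 counts as detected through 1 of its 2 probes.

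Both enzymes that lead to UDP-glucose were detected in the exosome pellet by every probe, and by none in the supernatant. PGM1 gave 22.1 ± 3.95, 1583 ± 158 and 1768 ± 177 on the exosome array at bases 175, 2159 and 2292, against 6.06 ± 2.82, 4.57 ± 2.42 and 2.28 ± 2.27 on the supernatant array. Its bounds were at least 2.44-fold, at least 175-fold and at least 196-fold. UGP2 gave 540 ± 54.0, 8085 ± 809, 21676 ± 2168 and 24329 ± 2433 on the exosome array at bases 827, 1755, 2104 and 2115, against 2.55 ± 1.94, 2.36 ± 2.36, 1.88 ± 1.87 and 3.19 ± 1.98 on the supernatant array. Its bounds were at least 59.7-fold, 894-fold, 2398-fold and 2692-fold, the last 2 from probes that overlap and so share most of their bases.

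GALT was measured on both arrays. Its exosome signals were 94.2 ± 9.73, 295 ± 29.6, 130 ± 13.4 and 873 ± 87.3 at bases 320, 563, 871 and 1208, against 2.25 ± 1.99, 21.2 ± 2.80, 2.35 ± 2.35 and 19.3 ± 2.79 on the supernatant array. Every probe was brighter on the exosome array, and the supernatant passed background with the probes at 563 and 1208. These gave 13.9-fold and 45.1-fold higher exosome signals, with bounds of at least 10.4-fold and at least 14.4-fold from the other 2. The mean difference of the measured pair was 4.65 (log2, 25.1-fold). Relative to the median gene it was 1.15 (2.22-fold higher in the exosome pellet), but the probes differed in this, with 0.30 at base 563 and 1.995 at base 1208. With each array scaled to its 75th percentile in place of the median gene, the mean difference was -0.81 over probes detected on both. Over all probes it was -0.92. Among the 3372 measured genes 35.5% had a difference at least as large as that of GALT before scaling.

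SLC35A2, the Golgi carrier of UDP-galactose, had the smallest mean bound per gene, at least 8.95-fold, of the members detected on the exosome array alone. Its exosome signals were 32.2 ± 4.34 and 242 ± 24.3 at bases 344 and 2204, of 2 transcript records, against supernatant signals of 10.8 ± 2.63 and 8.21 ± 2.16. The supernatant signals were the highest of any member probe not called above background there, and that at base 344 exceeded the lowest signal so called. The bounds were at least 2.99-fold at base 344 (chrX:55499251-55499310, plus strand) and at least 26.8-fold at base 2204.

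B4GALT1, which holds the active site of lactose synthase, was detected by all 4 probes in the exosome pellet and by 1 in the supernatant. Its exosome signals were 795 ± 79.6, 5223 ± 522, 9354 ± 935 and 15046 ± 1505 at bases 618, 1304, 1661 and 3808, the last on another transcript record (chr8:78980500-78980559, minus strand). Its supernatant signals were 2.01 ± 1.998, 2.56 ± 2.56, 16.7 ± 2.49 and 2.02 ± 2.01. Thus the exosome signals lay far above the supernatant signals at every probe, and the supernatant signal passed background at base 1661 alone. At that probe the difference was 9.13 ± 0.26 (log2, 559-fold, error from the software), and relative to the median gene it was 5.63 (49.4-fold higher in the exosome pellet). The bounds from the other probes were at least 88.0-fold, at least 578-fold and at least 1665-fold. Among the measured genes 4.77% had a difference at least as large as that of B4GALT1.

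The measured B4GALT1 value thus rested on a supernatant signal of 16.7 at the probe that closes in 6 A, and the GALT value partly on a signal of 21.2 at the probe with 5 C in a row. These features were looked at after the values were seen. Of all array probes with 6 or more A in a row (3.17% of probes), 21.9% were well above background on the supernatant array, and of those with 5 or more C in a row (3.22%), 42.0%, against 13.1% of all probes. The part of these runs in the supernatant signals of B4GALT1 and GALT was not tested.

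LALBA, the partner that turns B4GALT1 into lactose synthase, was above background with all 3 probes on both arrays. At base 374 (chr5:34387982-34388545, plus strand) it gave 222467 ± 22247 on the exosome array, against 19.4 ± 2.73 on the supernatant array. At base 650 it gave 313295 ± 31330 on the exosome array, against 1117 ± 112 on the supernatant array, and the other, from an expressed sequence tag, gave 239 ± 24.02 on the exosome array, against 12.6 ± 2.25 on the supernatant array. The exosome signal was 11455-fold, 281-fold and 19.04-fold higher, so the probes differed widely in their difference. This held also for those at bases 374 and 650, which share a transcript record. The mean difference was 8.62 (log2), or 5.12 relative to the median gene. In the same order the 3 probes lay 9.98, 4.63 and 0.75 above the median gene, so the last was less than 2-fold above it. Both subunits of lactose synthase thus had values above the median gene, of 5.63 for B4GALT1 and 5.12 for LALBA. The first rests on 1 probe with a dim supernatant signal, and the second is a mean over widely differing probes.

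Set against the array's overall brightness, the members fell into groups. Before scaling 83.3% of the 3372 measured genes were at least 2-fold brighter in the exosome pellet. Relative to the median gene, 37.2% lay 2-fold or more above it and 36.8% lay 2-fold or more below it. Both measured members, B4GALT1 and GALT, lay 2-fold or more above. For the other 6 the mean bound per gene before scaling was at least 766-fold for UGP2, 63.1-fold for HK1, 43.7-fold for PGM1, 30.9-fold for SLC2A8, 11.9-fold for SLC2A1 and 8.95-fold for SLC35A2. All 6 passed 2-fold before scaling, as did 94.2% of the 7508 genes detected on the exosome array alone. Taken relative to the median gene, the bounds were at least 6.08 (log2) for UGP2, 2.48 for HK1, 1.95 for PGM1, 1.45 for SLC2A8 and 0.07 for SLC2A1, and none could be given for SLC35A2. With each array scaled to its 75th percentile over probes detected on both, UGP2 was the 1 member past 2-fold, with a bound of at least 4.13 (log2), against 14.8% of those genes. By probe, the 19 member bounds before scaling had a median of 63.1-fold, beside a median of 15.2-fold over all 20220 probe bounds. Of the 19, 8 were at 100-fold or more, all from probes of UGP2, B4GALT1, PGM1 and SLC2A8, beside 17.6% of all probe bounds. Probes of 1 gene are not separate samples, and 2 of these UGP2 probes overlap. A bound set against the lowest detected supernatant signal follows the exosome signal alone.

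**Figure D2:**
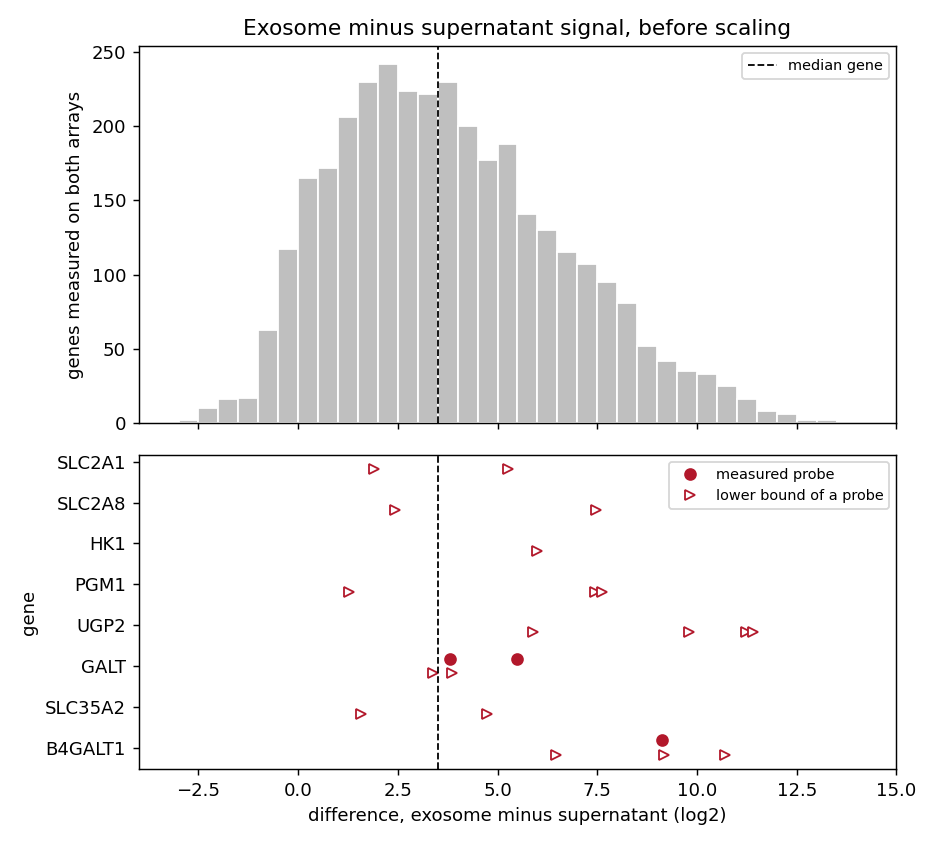
Top, number of genes by exosome minus supernatant difference (log2, before scaling) over the 3372 genes measured on both arrays, with the median gene at 3.50 as a dashed line. Bottom, the same difference for each member's measured probes (filled circles) and the lower bounds of its probes detected on the exosome array alone (open triangles), where all 3 circles and the UGP2 triangles lie to the right of the line and every member but HK1, UGP2 and B4GALT1 has a triangle to the left of it.

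The exosome signals of the members were brightest near the transcript's 3′ end, a pattern looked at after the values were seen. Probes bind with unequal strength, so an order between probes is a description of signals and not of amounts. In 6 member genes a single transcript record carried probes at least 200 bases apart, and in 6 of 6 the probe nearest the 3′ end gave the brightest exosome signal. Over all 6017 such records 70.7% did so, and 73.2% of the 5538 with 2 to 4 probes (81% with 2, 67.9% with 3 and 57.9% with 4). In 5 of the 6 (SLC2A1, SLC2A8, PGM1, UGP2 and B4GALT1) the signal rose at every step, and in GALT the probe at base 871 was dimmer than that at base 563, beside 62.2% of all such records. The first probe of SLC2A1 was not above background on the exosome array.

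**Figure D3:**
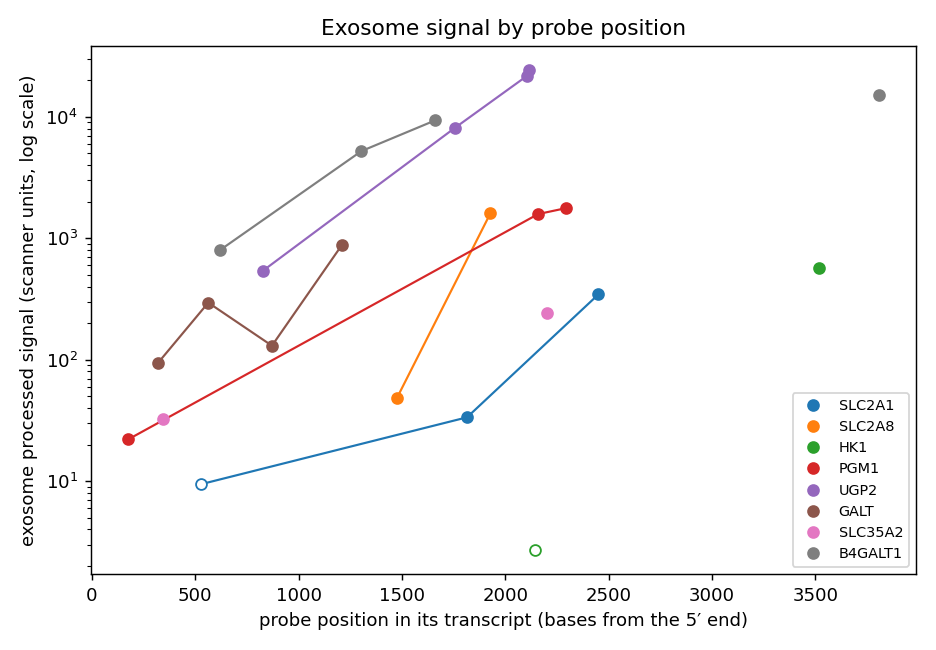
Exosome signal (log axis, scanner units) of each member probe by the base at which it begins in its transcript, with lines joining probes of the same transcript record and open points not well above background. Lines rise to the right throughout, except for GALT between bases 563 and 871; points of different genes are not to be ranked against each other.

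Polyadenylation hexamers lay in several member probes, and their number was not tested. AATAAA was found in 4 of the 24 member probes (UGP2 base 2115, SLC2A8 base 1928, SLC35A2 base 2204 and GALT base 1208) and in 9.35% of all probes. Its reverse complement TTTATT was in 0 member probes and 3.46% of all. The variant ATTAAA was in 1 member probe and 3.59% of all, and its reverse complement TTTAAT in 2 member probes and 2.36% of all. Over all probes, the exosome array detected 70.6% of those with AATAAA and 57.2% of those without, and the supernatant array 22.7% and 12.1%.

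The other genes of the pathway were taken from 7 lists of 60 genes, 58 of them on the array. Detection reached 42 (72.4%) in the exosome pellet, against 13 (22.4%) in the supernatant, shares close to the 69.2% and 22.7% of all named genes. Detection was on both arrays for 11, on the exosome array alone for 31, on the supernatant array alone for 2 and on neither for 14. Of the 11 measured on both, 3 lay 2-fold or more above the median gene and 6 lay 2-fold or more below it, with a median of -1.26 (log2). Among all measured genes, 37.2% lay that far above and 36.8% that far below. Of the 31 with a bound before scaling, 27 passed 2-fold, beside 94.2% of all genes detected on the exosome array alone.

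**Figure D4:**
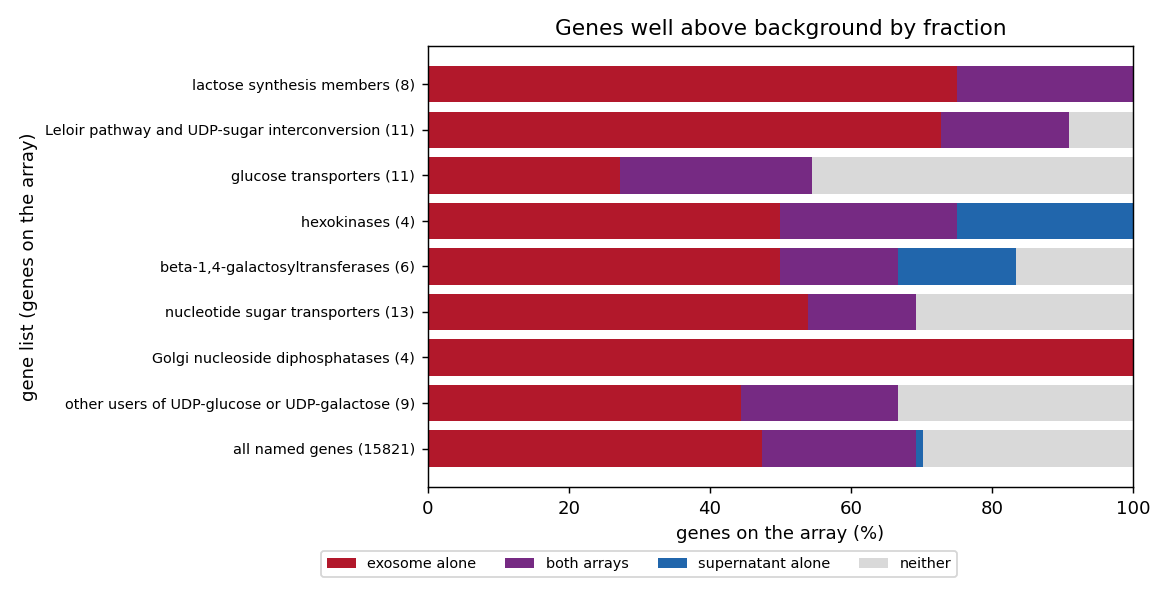
Share of the genes of each list, in percent of those on the array, detected on the exosome array alone (red), on both arrays (purple), on the supernatant array alone (blue) or on neither (grey), with all 15821 named genes at the bottom. All 8 members were detected in the exosome pellet, while glucose transporters had the largest share detected on neither array, 5 of 11.

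The exosome array detected 10 of 11 Leloir and UDP-sugar genes, the supernatant array 2. GALK1, the galactokinase, was at 20.4 and 62.1 in the exosome pellet against supernatant signals of 2.65 to 8.57, with a mean bound of at least 3.94-fold. PGM2, a phosphoglucomutase that acts mainly on pentose phosphates, was unlike PGM1: its 3 probes gave 3917 to 9989 in the exosome pellet and 1599 to 4166 in the supernatant, a difference of 1.08 (log2) that lay 2.42 below the median gene. PGM5, a relative of PGM1 with no known enzyme activity, was measured by 1 of 5 probes, with 45.5 in the exosome pellet at its highest and 70.4 in the supernatant, a difference of -0.63.

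The exosome array detected 6 of 11 other glucose transporters, the supernatant array 3, and most of those named here were dim. The exception was SLC2A4, the insulin-responsive glucose carrier, chosen after its values were seen: the 1 of its 4 probes above background gave 2582 in the exosome pellet against 32.5 in the supernatant, and its measured difference of 6.31 (log2) lay 2.81 above the median gene, the 1 gene of the list 2-fold or more above it. SLC5A1, the sodium-coupled glucose carrier, gave 26.2 and 34.7 in the exosome pellet against 1.85 and 13.9 in the supernatant, with a measured difference of 1.32 (log2), 2.18 below the median gene. SLC2A10 had a bound of at least 7.51-fold, SLC2A13 of at least 1.68-fold and SLC2A3 of at least 1.48-fold. Of the other hexokinases, ADPGK and HK3 had bounds of at least 3.15-fold and at least 2.09-fold. HKDC1 was above background on the supernatant array alone, at 9.72 in the exosome pellet against 18.5 in the supernatant, at least 1.64-fold brighter in the supernatant.

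Of the 6 other beta-1,4-galactosyltransferases the exosome array detected 4, the supernatant array 2. B4GALT2 gave 76.0 in the exosome pellet against 18.8 in the supernatant, 1.48 (log2) below the median gene. B4GALT3 had a bound of at least 69.1-fold and B4GALT7 of at least 2.27-fold, and B4GALT4 was above background on the supernatant array alone, with a bound of at least 1.44-fold. Of the 13 other nucleotide sugar transporters the exosome array detected 9, the supernatant array 2. SLC35A4 and SLC35C1 (the Golgi GDP-fucose carrier) stood 1.62 and 1.99 above the median gene, and SLC35A1 (the CMP-sialic acid carrier) and SLC35B3 had bounds of at least 13.6-fold and at least 2.63-fold. All 4 genes on the list labelled Golgi nucleoside diphosphatases were detected in the exosome pellet, and 0 of them in the supernatant. Their bounds ran from at least 1.83-fold for CANT1 to at least 176-fold for ENTPD6. The label was not checked gene by gene, so not all 4 need be Golgi enzymes or act on UDP. Of the other users of UDP-glucose or UDP-galactose, the exosome array detected 6 of 9, the supernatant array 2. GYS1, the muscle-type glycogen synthase, had a bound of at least 56.6-fold, GYG1, its primer, of at least 39.0-fold, UGCG, which makes glucosylceramide, of at least 17.9-fold, and UGGT2 of at least 1.74-fold.

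The genes most like the measured members were sought over the 3372 genes measured on both arrays, by the distance between their mean log2 exosome and supernatant signals. For B4GALT1 they were NDUFB8 (distance 0.026), PSMG4 (0.098) and APRT (0.15). For GALT they were DUSP6 (0.051), SLC36A4 (0.055) and NAV3 (0.069). With 2 arrays this likeness rests on 2 values per gene, and since probes bind with unequal strength, it is one of probe signals and not of RNA amounts.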

How the data were processed

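Gene expression was measured on 1 Agilent 1-colour bovine array per fraction, both on the same slide. The deposited intensity values are processed signals of Agilent Feature Extraction 10.7.3.1, from which the software had taken the background and spatial trends of each array, per the file headers, with no scaling from one array to the other. The authors' table of log2 values matched the log2 of these signals to within 1e-05. RNA of 3 milks was pooled before labelling, per the labels' protocols. The sources used here give no further step of theirs.

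Controls and 5 exosome and 2 supernatant outlier spots were left out, no gene spot was saturated, and spots of 1 probe were averaged. Detection of a probe needed the flag for well above background on all its spots, and detection of a gene needed 1 such probe. Differences per gene average the probes detected on both arrays, and the median gene's was then subtracted. Bounds are means over probes detected on the exosome array. The size call was 2-fold. No test was run, because 1 array per fraction leaves no spread between samples, and precision is limited by the number of arrays. The only technical spread comes from 50 probes on repeated spots, of which 9 were above background on both arrays, with a spot SD of 0.18 (log2). Probes of the same gene differed with an SD of 1.70 over 523 genes.

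Genes are named as the array names them, and probe positions are those of its annotation in build HGSC Btau_3.1. No coding annotation was used. Probes judged from their reading frame and position to lie in coding sequence were printed whole and others as their last 24 bases, a judgement that no annotation checked. Named genes were all members with every probe, LALBA, up to 4 genes per other list (the 2 highest and the 2 lowest in exosome signal among those detected on either array), and the 3 genes nearest each measured member. A few genes and probe sequences that these rules take are not reported here. The members and lists were chosen with earlier results of these data known. Python 3.11.15, pandas 2.3.3, numpy 2.4.6, R 4.3.3 and limma 3.58.1 (normexp with an offset of 50) were used. The calculation was tested on simulated data, in which the arrays were equally bright and unchanged genes were bright enough for detection on both. It therefore does not cover the dim supernatant signals met here. Alternatives were other detection flags, filters, scalings, background correction, probe choices and the authors' deposited table.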

Additional observations from a re-analysis of the deposited data

How the results depend on the processing

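All 8 members were detected on the exosome array in every alternative but that of requiring all probes of a gene, which left 6. The supernatant count of 2 became 7 with the software's weaker flag, 0 when requiring all probes and 0 with a filter at 4 times the lowest detected signal, and stayed at 2 with reference symbols or with outlier spots kept. For the other pathway genes the weaker flag gave 49 for exosome and 36 for supernatant, in place of 42 and 13. These changes were array-wide. All named genes measured on both arrays numbered 3372 at first, 9562 with the weaker flag and 1263 with the filter at 4 times the lowest signal. The share of all named genes detected on each array was not worked out for these settings. The B4GALT1 difference, 5.63 relative to the median gene, was positive in all alternatives that measured it. With other scalings in place of the median gene it was 3.67 with the 75th percentile over probes on both arrays and 3.56 over all probes. Likewise it was 9.13 unscaled and 6.86 with spike-ins. Relative to the median gene of each alternative it was 5.22 with quantile normalization, 4.91 with normexp and 7.50 with no filter. The GALT difference, 1.15 relative to the median gene, was -0.81 and -0.92 with the 75th percentiles in its place. That change of sign was set by their shifts of 5.45 and 5.56, against 3.50 (log2) for the median gene. Unscaled, the GALT difference was 4.65, and with spike-ins 2.38. Relative to the median gene of each alternative it was 0.72 with normexp, 1.50 with the weaker flag, 2.21 with no filter and 1.88 with the brightest probe. The stricter filter left no member measured on both arrays. The 6 bounds past 2-fold became 1 with the 75th percentile over probes on both arrays and 1 over all probes. Of all 7508 genes detected on the exosome array alone, 14.8% and 13.7% passed 2-fold in these settings. The 6 became 5 with spike-ins and 4 relative to the median gene, alternatives chosen after seeing the data. For those 2 alternatives the share of all such genes was not worked out. With the weaker flag SLC35A2 was measured at -0.17 and UGP2 at 6.91 relative to the median gene. No paired analysis was possible because each fraction has 1 array and no test was run. Signal over background on the supernatant array is what limits the measured differences: 21 of 24 member probes were not above background there, of which 19 have only a bound and the other 2 have none.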

Other observations

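Hexokinase 2, which has no probe under its own gene name, is described in the array annotation for 3 probes, found after values were seen. These gave 352 ± 35.3, 316 ± 31.7 and 30.4 ± 3.84 on the exosome array, against 2.33 ± 2.32, 1.92 ± 1.93 and 3.13 ± 1.93 on the supernatant array. All 3 were above background on the exosome array alone, with bounds of at least 38.9-fold, 34.9-fold and 3.36-fold before scaling. The first and second are listed on the plus strand, at chr11:9901996-9902055 and chr11:9900191-9900250, and the dimmest on the minus strand, at chr11:10059476-10059535, away from the others, so whether it reads hexokinase 2 was not tested.

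A probe described as B4GALT1 but named by a consensus sequence lies at chr8:78983903-78983962 on the minus strand, between the B4GALT1 probes at bases 618 and 1304. It gave 10.3 ± 3.03 on the exosome array, against 2.40 ± 2.24 on the supernatant array, and was above background on neither, while the B4GALT1 probes on both sides of it were at 795 and 5223 in the exosome pellet. Whether it lies in an intron was not analysed here.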
